A study of Mus musculus with 22 samples.

Results

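The MHC class II presentation genes described here were 8 genes named by symbol: H2-Aa, H2-Ab1, H2-Eb1, Cd74, Ciita, H2-DMa, H2-DMb1 and Ctss. They were chosen for their role in the pathway, with earlier results of these data known. All 8 were listed among the 52526 distinct gene symbols of the series and among the 15138 genes tested. RNA was measured in the left 4th mammary fat pad of 22 female C57BL/6J mice, 7 to 8 weeks old, a day after the pad had been engrafted with 100000 EO771 cells, a mammary cancer line of the same strain carrying firefly luciferase. In a 2 × 2 design, mice had either a running wheel with its hub (wheel) or the hub alone (control) for 2 weeks, and were injected intravenously with liposomes holding PBS or clodronate, which is toxic to phagocytes once taken up, both 24 hours before engraftment and at engraftment. PBS groups held 6 mice each and clodronate groups 5 each. All groups therefore carried engrafted cells and received liposomes, and none was left without either.

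MHC class II molecules display peptides from endocytosed proteins to CD4+ T cells. B cells, dendritic cells and many macrophages carry them, and most other cells lack them unless exposed to interferon gamma, which turns on the transactivator Ciita. An alpha and a beta chain assemble with the invariant chain Cd74, the protease cathepsin S trims Cd74 to a short fragment in the endosome, and H2-DM exchanges that fragment for peptide. In this strain the alpha chain gene of the I-E molecule is not expressed, so that the product of H2-Eb1 does not reach the cell surface although the gene is transcribed.

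The signal of a gene was its count scaled to the total of all reads of the library (CPM), with every value below 1 raised to 1 in the deposited data, and libraries held 13256467 to 20484578 reads. QuantSeq reads the 3′ ends of transcripts, at about the same rate whatever their length, so that levels of different genes can be set side by side. The adipocyte genes that mark a fat pad were high in all mice, with Adipoq between 865 and 2656 CPM. Genes that mark B cells separated the mice into a pair of clusters. The B cell score, the mean of log2(CPM + 1) over 12 B cell genes, was 4.40 to 6.07 in 5 mice and 1.00 to 1.2 in the other 17. The 5 mice were control PBS mouse 2, wheel PBS mouse 3 and wheel clodronate mice 3, 4 and 5, and no control clodronate mouse was among them. The same 5 libraries were high in all 10 T cell genes, in Cxcl13 (22.5 to 92.2 CPM against at most 2.19) and in Glycam1, a gene of high endothelial venules (436 to 985 CPM against at most 4.78). Ccl21a and Ccl19, stromal genes of lymph nodes, were at the floor of 1 CPM in all 22. Their 3′ ends were not searched for copies in other genes, so that lost reads and absent RNA cannot be told apart. The comparisons of the members are given below with and without these 5 mice. In bulk tissue, more cells of a type and more RNA per cell cannot be told apart.

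Promoter sequences are shown first because class II genes are known for a shared upstream layout, an X box followed by a Y box, on which the RFX complex, CREB, NF-Y and Ciita assemble. RefSeq promoters (build GRCm38.p6, from 250 bases before the start) were at hand for 5 of the 8 genes, H2-Aa, H2-Eb1, H2-DMa, H2-DMb1 and Ctss. H2-Ab1, Cd74 and Ciita had no entry. The letters searched, on both strands, were an X-box-like motif (AAC, any 2 bases, ATG, any 1 base, TG), GATTGG (Y box, an inverted CCAAT box), TGACGTCA (the CREB motif, here CRE-like) and an interferon response element, ISRE-like (GAAA, any 2 bases, GAAA), and they were settled on after these promoters had been read. H2-Ob, the beta chain of the H2-DM inhibitor H2-O, is shown beside the members because its signal moved with theirs. The lines below give the bases before the transcription start, 5′ to 3′ on the strand of the gene, with matches in capitals. H2-Aa lies on the minus strand at chr17:34287824-34287953, and the others on the plus strand, H2-Eb1 at chr17:34305737-34305866, H2-Ob at chr17:34238775-34238902 and Ctss at chr3:95526656-95526785.
H2-Aa: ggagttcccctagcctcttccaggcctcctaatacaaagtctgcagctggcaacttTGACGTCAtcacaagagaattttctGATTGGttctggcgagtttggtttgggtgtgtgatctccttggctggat
H2-Eb1: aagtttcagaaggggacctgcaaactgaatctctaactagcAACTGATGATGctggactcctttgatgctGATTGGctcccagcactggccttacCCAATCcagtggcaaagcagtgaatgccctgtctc
H2-Ob: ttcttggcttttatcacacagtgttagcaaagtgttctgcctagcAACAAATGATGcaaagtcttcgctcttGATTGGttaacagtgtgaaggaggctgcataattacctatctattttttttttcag
Ctss: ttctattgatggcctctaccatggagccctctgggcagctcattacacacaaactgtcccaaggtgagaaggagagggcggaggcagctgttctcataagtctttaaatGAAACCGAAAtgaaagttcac

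The X-box-like letters were present in H2-Eb1 and H2-DMb1 among the members, and in H2-DMb2, H2-Ob and H2-Eb2 among the other class II genes, and in 0.566% of all 32851 promoters. In each of these 5 promoters a Y box followed on the same strand after 16 to 19 bases. A Y box, with or without the X-box-like letters, was found in 16.1% of all promoters, and both motifs together in 0.113%. H2-Aa held the CRE-like letters (1.79% of all promoters) at positions -74 to -67, where the base before the start is -1, and a Y box at -49 to -44, but no match to the X-box-like letters as written. Of the 2 H2-DMa promoters in the table, the only match was a Y box at -199 to -194 in a single promoter. Ctss held none of the X-box-like, Y box or CRE-like letters in this window, and an ISRE-like match (3.44% of all promoters) at -21 to -12. A match is a description of the letters and not evidence that a factor binds there.

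**Figure D1:**
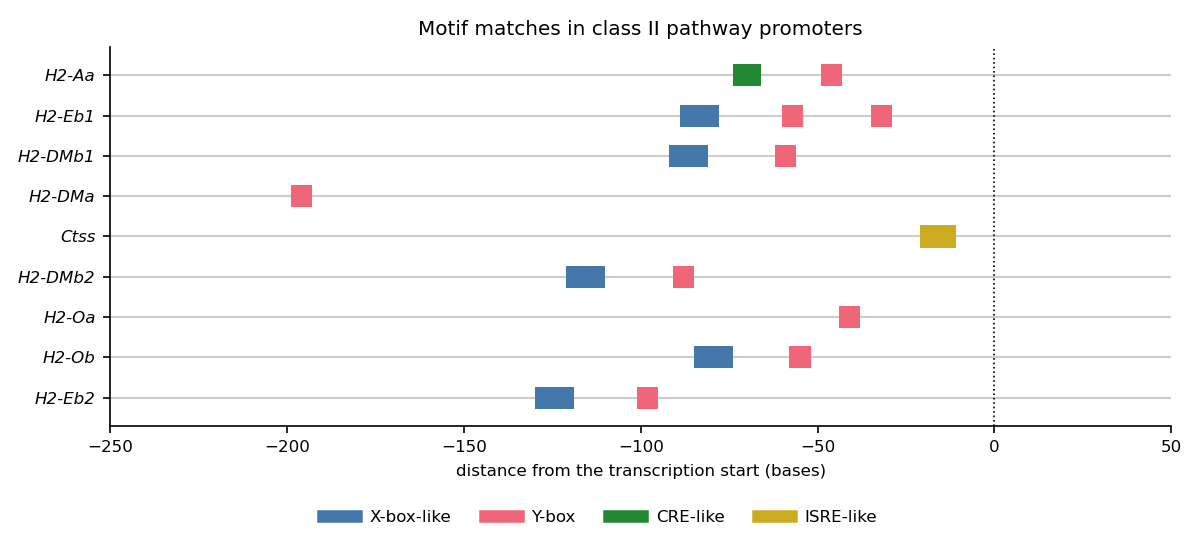
Position of motif matches in promoters of class II pathway genes, in bases from the transcription start (dotted line), each row a gene and each coloured block a match. In H2-Eb1, H2-DMb1, H2-DMb2, H2-Ob and H2-Eb2 an X-box-like match is followed by a Y box after 16 to 19 bases, while Ctss holds a single ISRE-like match close to the start.

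All 8 members are protein-coding (GENCODE M21, build GRCm38). The 5 chain and H2-DM genes share a stretch of chromosome 17: H2-DMa at 34119541 to 34139101, H2-DMb1 at 34153072 to 34160230, H2-Ab1 at 34257689 to 34269419 and H2-Eb1 at 34305867 to 34316674 on the plus strand, and H2-Aa at 34282744 to 34287823 on the minus strand. Ciita lies on chromosome 16 (10480059 to 10528418) and Ctss on chromosome 3 (95526786 to 95556403), both on the plus strand, and Cd74 on chromosome 18. No other gene had a stretch of at least 97% identity with the last 400 bases of any member. H2-DMb1 shared 224 bases at 94.2% identity with H2-DMb2, and H2-Ab1 156 bases at 92.3% with H2-Eb1, so that reads of these pairs may be split less surely.

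By their median CPM over the 22 mice the members ranked H2-Aa (175), H2-Ab1 (136), Cd74 (135), H2-Eb1 (130), Ctss (49.2), H2-DMb1 (16), H2-DMa (13.4) and Ciita (1.45). H2-Aa was above H2-Ab1 in 20 of 22 mice. H2-Ab1, Cd74 and H2-Eb1 could not be ordered, H2-Ab1 being above Cd74 in 11 of 22 mice and Cd74 above H2-Eb1 in 11 of 22. Ctss was above H2-DMb1, and H2-DMa above Ciita, in all 22. The order of the H2-DM chains turned with the B cell score: H2-DMa was above H2-DMb1 in 5 of the 5 mice with a high score and in 5 of the other 17.

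**Figure D2:**
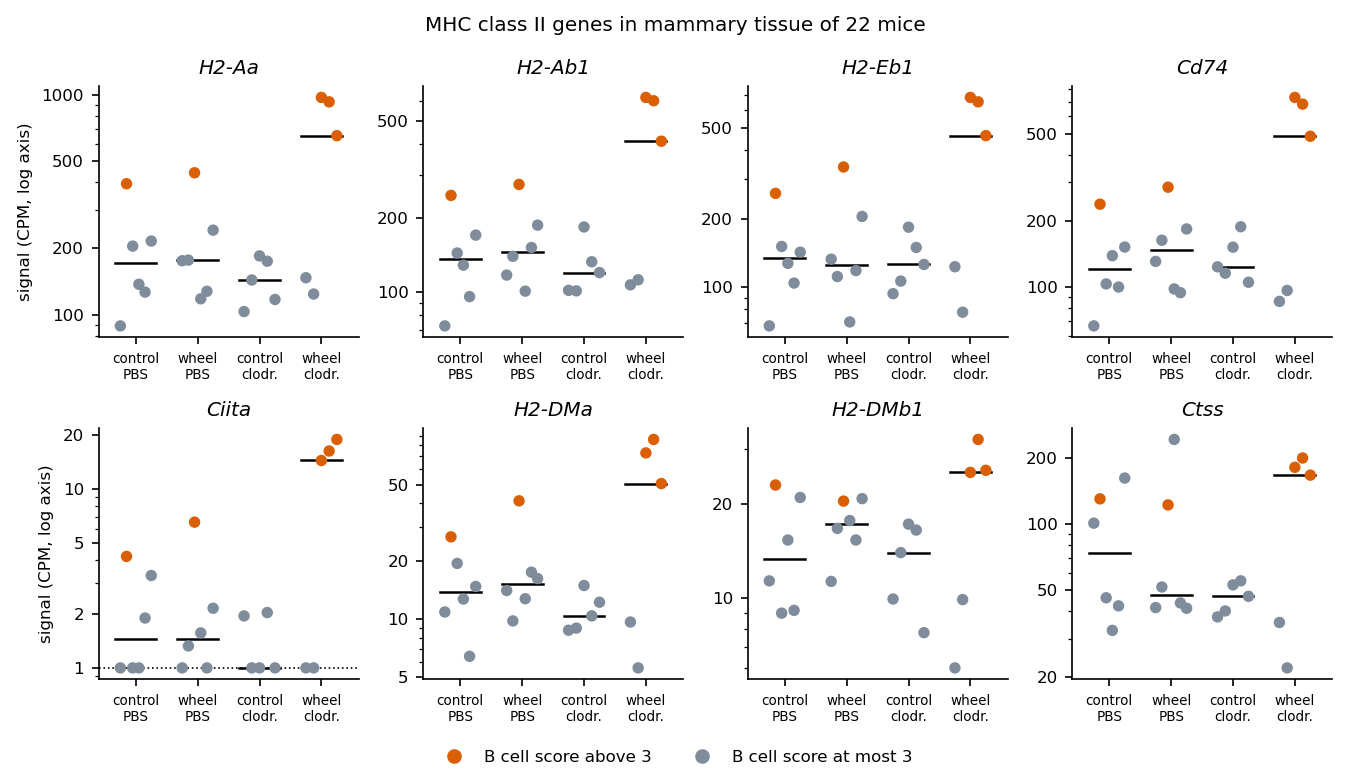
Signal of each of the 8 genes in every mouse (CPM, log axis, each panel with its own range) by group, with the group median as a bar and the floor of 1 CPM dotted for Ciita. The 5 mice with a B cell score above 3 (orange) lie above all 17 others (grey) in 6 panels, and among them in the panels of H2-DMb1 and Ctss.

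H2-Aa encodes the alpha chain of I-A, the class II molecule this strain displays. With PBS liposomes its signal was 88.9 to 394 CPM (median 171) in control mice and 118 to 442 CPM (median 176) in wheel mice. With clodronate liposomes it was 103, 144, 185, 175 and 117 CPM in control mice 1 to 5, and 147, 124, 972, 928 and 651 CPM in wheel mice 1 to 5. The highest value of each PBS group came from the mouse with a high B cell score, and the wheel clodronate group was split between 2 mice within the range of the controls and 3 mice far above it. H2-Ab1, its beta chain partner, ran from 72.5 to 621 CPM and H2-Eb1 from 67.7 to 684 CPM, with the same 5 mice on top. The ratio of H2-Ab1 to H2-Aa was 0.621 to 0.649 in the 5 mice and 0.665 to 1.19 in the other 17, so that the ranges of this ratio did not overlap. The ratio of H2-Eb1 to H2-Aa was 0.658 to 0.766 in the 5 mice and 0.597 to 1.08 in the 17.

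Cd74, the invariant chain, was highest in the same 5 mice as the chains. Its signal was 66.6 to 239 CPM (median 121) in control PBS mice, 94.4 to 285 CPM (median 147) in wheel PBS mice and 105 to 188 CPM (median 124) in control clodronate mice. In wheel clodronate mice 1 to 5 it was 86.2, 96.6, 731, 682 and 487 CPM. The ratio of Cd74 to H2-Aa stayed between 0.505 and 1.2 in all 22 mice, a 2.37-fold range against a 10.9-fold range for H2-Aa itself. The upper part of the H2-Aa range came from the 5 mice. In the other 17, H2-Aa ran only from 88.9 to 242 CPM, and the ratio had the same 2.37-fold range.

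Ciita, the transactivator on which class II transcription depends, was the lowest member and above the floor in 12 mice only. It reached 4.2 CPM in control PBS mouse 2 and 6.53 CPM in wheel PBS mouse 3, against at most 3.29 CPM in the other mice with PBS liposomes. In wheel clodronate mice 1 to 5 it was at the floor, at the floor, 14.5, 16.3 and 19.0 CPM. The highest Ciita count was 356 reads, and the floor corresponds to 13 to 20 reads depending on the library, so that differences among the 10 mice at the floor cannot be seen.

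H2-DMa and H2-DMb1 encode the chains of H2-DM, the peptide exchange factor. H2-DMa was 6.39 to 26.7 CPM (median 13.7) in control PBS mice, 9.77 to 41.2 CPM (median 15.1) in wheel PBS mice and 8.74 to 14.9 CPM (median 10.4) in control clodronate mice. In wheel clodronate mice 1 to 5 it was 9.64, 5.57, 73.0, 85.9 and 50.6 CPM. H2-DMb1 varied least of the members, from 5.99 to 32.3 CPM over all mice, and 2 of the 17 mice with a low B cell score exceeded the lowest of the 5. H2-DMb2, an H2-DM beta chain from the neighboring gene, was instead 23.9 to 106 CPM in the 5 mice and at most 8.78 CPM in the 17. The last 400 bases of H2-DMb2 hold a stretch of at least 90% identity with 394 other genes, and of at least 97% with 1, so that its values are less certain than those of the members. The ratio of H2-DMb2 to H2-DMb1 was 1.03 to 4.2 in the 5 mice and 0.0516 to 0.978 in the 17.

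Ctss, cathepsin S, was the member that departed most from the chains. In control PBS mice it was 32.7 to 162 CPM (median 73.4) and in wheel PBS mice 41.2 to 242 CPM (median 47.6). With clodronate liposomes it was 37.7, 40.1, 52.7, 55 and 46.8 CPM in control mice 1 to 5, and 35.5, 22.1, 181, 199 and 167 CPM in wheel mice 1 to 5. Besides the 5 mice with a high B cell score (122 to 199 CPM), control PBS mouse 6 (162 CPM), control PBS mouse 1 (101 CPM) and wheel PBS mouse 4 (242 CPM, the highest value) were high in Ctss without being high in B cell genes. The ratio of Ctss to H2-Aa ran from 0.170 to 2.05, a 12.1-fold range.

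The 5 mice are set beside the 17 as a description, with no test, since the split was made on these libraries. All 5 lay above all 17 in 6 of the 8 members, and in 392 of the 15138 genes (2.59%). The ratio of the median of the 5 to that of the 17 was 4.53 for H2-Aa, 4.2 for Cd74, 4.14 for H2-DMa, 3.82 for Ctss, 3.77 for H2-Eb1, 3.44 for H2-Ab1 and 1.81 for H2-DMb1. For Ciita the median of the 17 was at the floor and that of the 5 was 14.5 CPM. Members other than Ciita were above the floor in all 17 as well, with H2-Aa at 88.9 to 242 CPM and H2-DMa at 5.57 to 19.5 CPM. The 12 B cell genes had at most 4.31 CPM in the 17. The 5 mice exceeded the 17 in all 12 B cell genes, which is no separate result because the split was made on the mean of these genes. Across the other cell type lists named here, they did so in all 10 T cell genes, in 1 of 10 dendritic cell genes (Ccl22) and in 0 of 12 macrophage genes. The median ratio was 2.39 for the dendritic cell genes and 1.16 for the macrophage genes. The dendritic cell score, their mean log2(CPM + 1), was 2.69 to 3.18 in the 5 mice and 1.67 to 2.27 in the 17, without overlap, and the macrophage score was 4.54 to 5.03 against 3.86 to 5.25. Which cells carried the class II RNA was not tested.

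**Figure D3:**
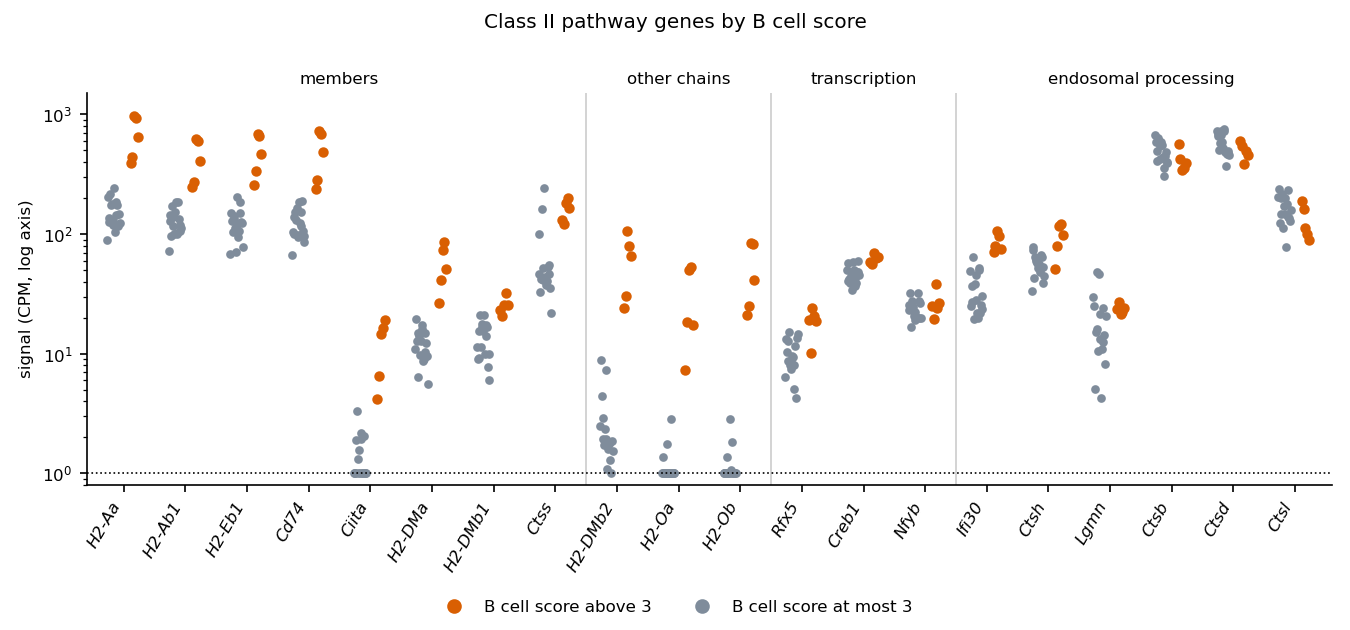
Signal (CPM, log axis, floor dotted) of the 8 members and 12 other pathway genes in each of the 5 mice with a B cell score above 3 (orange) and the 17 others (grey). The chains, Cd74, Ciita, H2-DMa, H2-DMb2, H2-Oa, H2-Ob and Ifi30 separate the mice, while H2-DMb1, Ctss, Rfx5, Creb1, Nfyb, Ctsh, Lgmn, Ctsb, Ctsd and Ctsl overlap.

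With PBS liposomes, wheel running was compared with the control condition in 6 against 6 mice. No member passed an adjusted p of 0.05 (limma on log2(CPM + 1), Benjamini-Hochberg adjustment over all 15138 genes), as none of all genes did (0%), and 0 members had an unadjusted p under 0.05 (0.799% of all genes did so with a higher and 4.12% with a lower signal). The differences, wheel minus control on the log2 scale, were 0.15 for H2-Aa, 0.21 for H2-Ab1, 0.13 for H2-Eb1, 0.26 for Cd74, 0.02 for Ciita, 0.25 for H2-DMa, 0.26 for H2-DMb1 and -0.04 for Ctss, each smaller than its standard error (0.33 to 0.53). Their median was 0.18 beside -0.08 over all genes. The 95% interval for H2-Aa ran from -0.80 to 1.10, which leaves differences of that size undetectable here. The median of the members was 0.16 without the 5 mice, and the interval for H2-Aa narrowed to -0.38 to 0.67. None was called there (0%), and 0 had an unadjusted p under 0.05, beside 0.793% of all genes higher and 3.34% lower.

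With clodronate liposomes, wheel mice were higher than control mice in all 8 members, by 1.51 ± 0.50 (log2, SE, 5 against 5 mice) for H2-Aa, 1.18 ± 0.43 for H2-Ab1, 1.16 ± 0.50 for H2-Eb1, 1.11 ± 0.49 for Cd74, 1.64 ± 0.56 for Ciita, 1.33 ± 0.55 for H2-DMa, 0.39 ± 0.37 for H2-DMb1 and 0.90 ± 0.58 for Ctss. None passed the adjusted threshold (limma, adjusted p = 0.266 for H2-Aa and 0.272 for Ciita, over alternatives 0.0443 to 0.999 and 0.0455 to 0.998), where 0.00661% of all genes did. At an unadjusted p under 0.05, 6 members were higher and 0 lower, as were 7.04% and 3.4% of all genes, and the median difference was 1.17 beside 0.00 over all genes. These p-values use a spread shared by all 4 groups. In a limma fit of only the groups compared, 3 members were higher at that level, beside 909 of 15138 genes higher and 454 lower. In each member the ranges of the groups overlapped, since wheel clodronate mice 1 and 2 lay within or below the range of the controls. For single members an exact two-sided permutation test gave p = 0.0952 for H2-Aa, the lowest, and up to 0.429 for H2-DMb1. The 252 splits allow 0.00794 at the least. The 12 B cell genes and 10 T cell genes moved the same way, all 22 with an unadjusted p under 0.05 and with median differences of 3.17 and 2.39, while the 12 macrophage genes had a median difference of 0.12 and none under that level. The B cell genes set the split, which put 3 of the 5 mice in this wheel group and 0 in its controls. Cd79a, Cd22, Cr2 and Cxcr5 passed the filter only through the 5 mice. The p-values of the B cell genes thus restate the split and give no separate support for the members' differences. Without the 5 mice, which leaves 2 wheel clodronate mice, all 8 members were lower in wheel mice, from -0.06 ± 0.33 for H2-Aa to -0.69 ± 0.62 for Ctss (median -0.44). None of them was called by limma (0.0793% of all genes were), and 0 had an unadjusted p under 0.05, beside 2.7% of all genes higher and 3.65% lower. The macrophage list turned with them, to a median of -0.59 with 2 of 12 genes lower at that level, while 1 of 12 B cell and 0 of 10 T cell genes remained higher at it. The part of macrophages in the members' values was not tested. With the B cell score as a covariate the median was -0.21. Leaving out wheel clodronate mouse 2 alone, a mouse with a low B cell score, moved the difference to 1.93 for H2-Aa (adjusted p = 0.0443) and to 2.11 for Ciita (adjusted p = 0.0455), the only members called in any setting tried, in a comparison where 1.56% of all genes were then called.

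In control mice, clodronate was compared with PBS liposomes in 5 against 6 animals. No member passed (0% of all genes did), and 0 members had an unadjusted p under 0.05, against 0.905% of all genes with a higher and 6.08% with a lower signal. The differences were lower with clodronate in 7 of 8 members, from -0.03 ± 0.48 for H2-Eb1 to -0.63 ± 0.55 for Ctss, and 0.12 ± 0.47 for Cd74. The median over the members was -0.20, beside -0.10 over all genes. Control PBS mouse 2 was the only mouse with a high B cell score here, and without the 5 mice 4 members were higher and 4 lower (median -0.02), 0 of them with an unadjusted p under 0.05, beside 0.746% of all genes higher and 5.93% lower. Ctss remained the lowest of them at -0.46 ± 0.47. The macrophage genes, of which the drug's targets carry many, had a median difference of -0.36, with 0 of 12 past the adjusted threshold in limma and 2 lower at an unadjusted p under 0.05. Their median was -0.38 without the 5 mice, again with 2 lower at that level.

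In wheel mice, clodronate minus PBS was positive for all 8 members, with 1.07 ± 0.48 for H2-Aa, 0.89 ± 0.41 for H2-Ab1, 1.01 ± 0.48 for H2-Eb1, 0.97 ± 0.47 for Cd74, 1.35 ± 0.53 for Ciita, 0.75 ± 0.53 for H2-DMa, 0.31 ± 0.55 for Ctss and 0.00 ± 0.35 for H2-DMb1. No member passed the adjusted threshold (0.00661% of all genes did), and 4 were higher and 0 lower at an unadjusted p under 0.05, as were 6.08% and 5.54% of all genes. These p-values use a spread shared by all 4 groups. A limma fit of only the groups compared gave 0 members at that level, beside 677 of 15138 genes higher and 848 lower. Exact permutation tests gave p = 0.108 for Ciita, the lowest, and up to 0.996 for H2-DMb1. This comparison shares the wheel clodronate mice with that of wheel against control, so the results are not independent. Without the 5 mice all 8 members were lower with clodronate (median -0.41, 2 against 5 mice), and H2-DMa (-0.82 ± 0.36) and H2-DMb1 (-0.97 ± 0.37) had an unadjusted p under 0.05, as did 5.81% of all genes with a lower and 3.05% with a higher signal. Their adjusted p-values by limma were 0.51 and 0.447, so that no member was called (0.0925% of all genes were). The macrophage genes had a median difference of -0.19 over all mice, with 0 of 12 lower at an unadjusted p under 0.05, and of -0.75 without the 5 mice, with 5 of 12 lower at that level and 0 called. Their score in the 2 remaining wheel clodronate mice was 3.86 and 3.91, below the 3.94 to 5.07 of the 5 wheel PBS mice, and its part in the members' lower values was not tested. With the B cell score as a covariate over all 22 mice, the difference was -0.45 for H2-DMa and -0.63 for H2-DMb1.

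**Figure D4:**
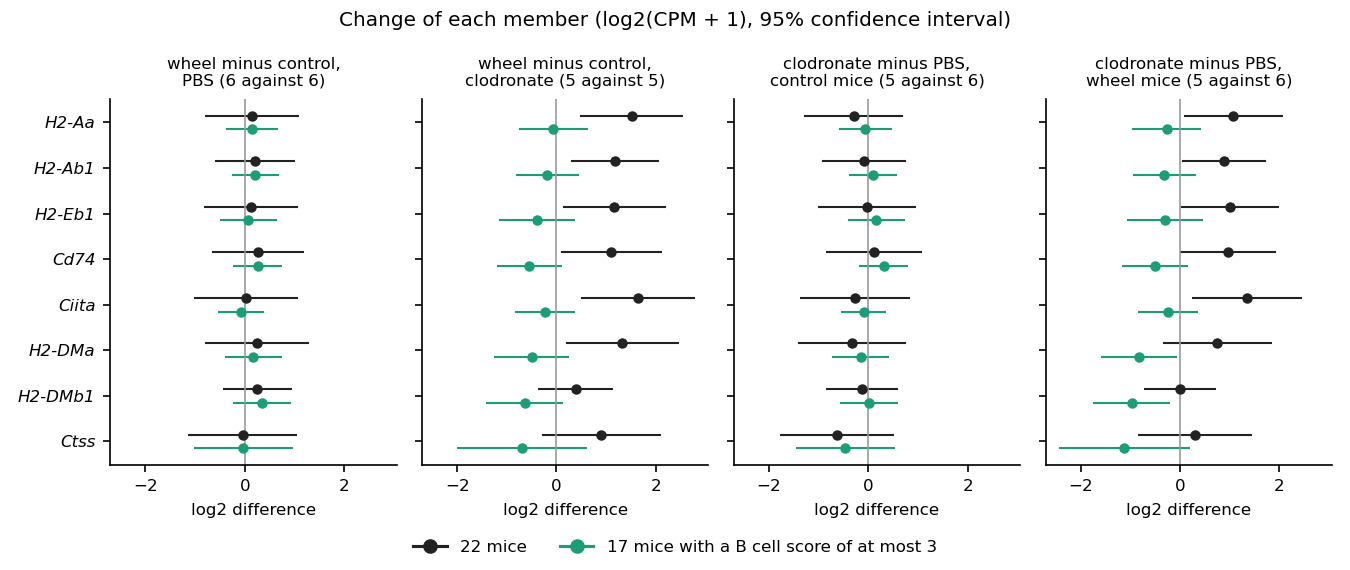
Difference of each member in the 4 comparisons of a pair of groups (log2(CPM + 1), with 95% confidence intervals from limma) over all 22 mice (black) and over the 17 mice with a B cell score of at most 3 (green), of which 2 were wheel clodronate mice. Black points lie at or right of 0 in both comparisons that involve wheel clodronate mice, and the green points of the same comparisons lie left of it.

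Averaged over activity, clodronate minus PBS was positive in 6 members and negative in 2 (median 0.39), and limma called none, where 0.205% of all genes were called, all of them lower. None had an unadjusted p under 0.05 (2.13% of all genes higher, 8.3% lower). Without the 5 mice all 8 were negative, with a median of -0.17 beside -0.09 over all genes, and H2-DMa (-0.49 ± 0.22) had an unadjusted p under 0.05, as did 9.67% of all genes with a lower and 2.87% with a higher signal. The macrophage genes went from a median of -0.20, with 3 of 12 lower at that level, to -0.50 with 6 of 12 lower, none of them called. The interaction, the effect of the wheel with clodronate minus that with PBS liposomes, was positive for all 8 members, at 1.36 ± 0.68 for H2-Aa and 1.62 ± 0.75 for Ciita. No member was called (0% of all genes), and Ciita alone had an unadjusted p under 0.05, beside 6.35% of all genes with a positive and 1.23% with a negative interaction. Without the 5 mice all 8 were negative (median -0.56), with -0.21 for H2-Aa and -0.15 for Ciita, and H2-DMb1 (-0.98 ± 0.46) had an unadjusted p under 0.05, as did 1.6% of all genes with a negative and 2.6% with a positive interaction.

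Among the other class II chains, H2-DMb2, H2-Ob and H2-Oa were tested, H2-O being the inhibitor of H2-DM that B cells carry. None of the 3 was called in any comparison, and all 3 had an unadjusted p under 0.05 in wheel against control mice with clodronate liposomes, where H2-DMb2 differed by 3.09 ± 0.93 and H2-Ob by 2.93 ± 0.97. H2-Ob was 41.1, 83.2 and 84.9 CPM in the 3 wheel clodronate mice with a high B cell score and at most 2.86 CPM in the 17 mice. Over the 17 other mice the differences were 0.12 ± 0.46 for H2-DMb2, -0.11 ± 0.21 for H2-Ob and -0.19 ± 0.22 for H2-Oa, with 0 of 3 at an unadjusted p under 0.05. H2-Ea-ps, the I-E alpha chain pseudogene of the strain, was at the floor in all 22 mice. H2-Eb2 had a median of 7.56 CPM in the 5 mice and was at the floor in the 17.

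Of the 7 genes that act on the X and Y boxes, 0 were called in any comparison, and in 0 of 7 did all 5 mice exceed all 17 (median ratio 1.09). Creb1, at 56.6 to 69.8 CPM in the 5 mice and 33.8 to 59.6 CPM in the 17, and Nfyb, at 19.5 to 37.9 against 16.6 to 32.2 CPM, were the most abundant. Rfx5, the DNA-binding subunit of the RFX complex, was named after its values were seen: it differed by 1.2 ± 0.29 between wheel and control mice with clodronate liposomes (limma, adjusted p = 0.207), and by 0.87 ± 0.37 without the 5 mice (adjusted p = 0.738). Its median was 19.3 CPM in the 5 mice and 9.37 CPM in the 17. Ciita, by contrast, went from the floor to 14.5 CPM between the same medians.

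The 9 genes of endosomal processing hardly followed the chains as a list, with a median ratio of 1.02 between the 5 mice and the 17 (0.706 to 2.81). Ctsd and Ctsb, the abundant cathepsins D and B, had medians of 494 and 392 CPM in the 5 mice and of 577 and 485 CPM in the 17. Ifi30, the thiol reductase GILT that unfolds antigens, was the only 1 of the 9 in which all 5 mice exceeded all 17. It was chosen after its values were seen, with 71.1 to 105 CPM in the 5 mice and 19.7 to 64.7 CPM in the 17. Ctsh, also named after its values were seen, had medians of 98.1 and 56.2 CPM. Its ranges overlapped, at 50.7 to 122 CPM in the 5 mice and 33.5 to 77.6 CPM in the 17. None of the 9 was called in any comparison. Clodronate minus PBS was -0.47 ± 0.15 for Ctsb in control mice and -0.45 ± 0.15 in wheel mice, and -0.31 ± 0.16 and -0.46 ± 0.16 for Ctsd (limma, adjusted p = 0.496, 0.235, 0.717 and 0.255). In the 17 other mice the values were -0.46 ± 0.16 and -0.44 ± 0.22 for Ctsb, and -0.32 ± 0.17 and -0.45 ± 0.23 for Ctsd. The adipocyte list was also lower in both comparisons over all mice, with medians of -0.36 and -0.42. Mif and Cd44, the ligand and the coreceptor of surface Cd74, had medians 1.33 and 1.47 times higher in the 5 mice, with overlapping ranges.

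Over the 12 genes of interferon gamma signaling and its targets, the ratio of the median of the 5 mice to that of the 17 ran from 0.99 to 8.85. The median of these ratios was 2.03. Ifngr1, a receptor chain, had the lowest ratio and was level between the 5 mice and the 17 (medians 92.8 and 93.6 CPM). Irf8, a factor of B cells, dendritic cells and macrophages named after its values were seen, was the only gene of this list in which all 5 (81.6 to 233 CPM) exceeded all 17 (at most 43.8 CPM). Ifng itself was above the floor in 1 mouse, wheel clodronate mouse 5, at 1.28 CPM. On the T cell side, Cd4, the coreceptor for class II, was 8.41 to 31.0 CPM in the 5 mice and at most 2.21 CPM in the 17, and Cd28 4.36 to 17.2 against at most 2.34 CPM. None of these 2 lists had a called gene in any comparison.

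In the 17 mice with a low B cell score the members varied together to different degrees. Over these 17 libraries, which share the fat pad as their source, Pearson's r between log2(CPM + 1) values was 0.82 for H2-Aa with H2-Ab1, 0.84 for H2-Aa with H2-Eb1 and 0.73 for H2-Aa with Cd74. It was 0.49 for H2-Aa with H2-DMa, 0.34 with Ciita, 0.44 with H2-DMb1 and -0.02 with Ctss. Other pairs lay between, such as Cd74 with H2-DMb1 (0.63), H2-Ab1 with H2-DMa (0.60) and H2-Eb1 with H2-DMa (0.56). These are given as a description with no p. Over all 22 mice no pooled value is given for these pairs, since the mice fall into separate clusters.

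Each member was also compared with list scores (mean log2(CPM + 1) of macrophage, dendritic cell, interferon gamma, adipocyte and epithelium genes) over the 17 mice, 40 relations in all. None passed after Benjamini-Hochberg adjustment of permutation p-values (0 for r and 0 for Spearman's rho). The strongest was Ctss with the interferon gamma list (r = 0.69, permutation p = 0.00275, adjusted 0.0674; rho = 0.70), and without the 2 mice farthest from the median of that list r was 0.27, so that it rests on them. Within groups r was 0.71. Ctss with the dendritic cell list gave r = 0.64 (permutation p = 0.00337, adjusted 0.0674) and 0.49 without the 2 farthest mice, and H2-DMa with the macrophage list r = 0.62 (permutation p = 0.00862, adjusted 0.115). H2-Aa gave 0.48 with macrophage genes and -0.19 with dendritic cell genes, neither passing.

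**Figure D5:**
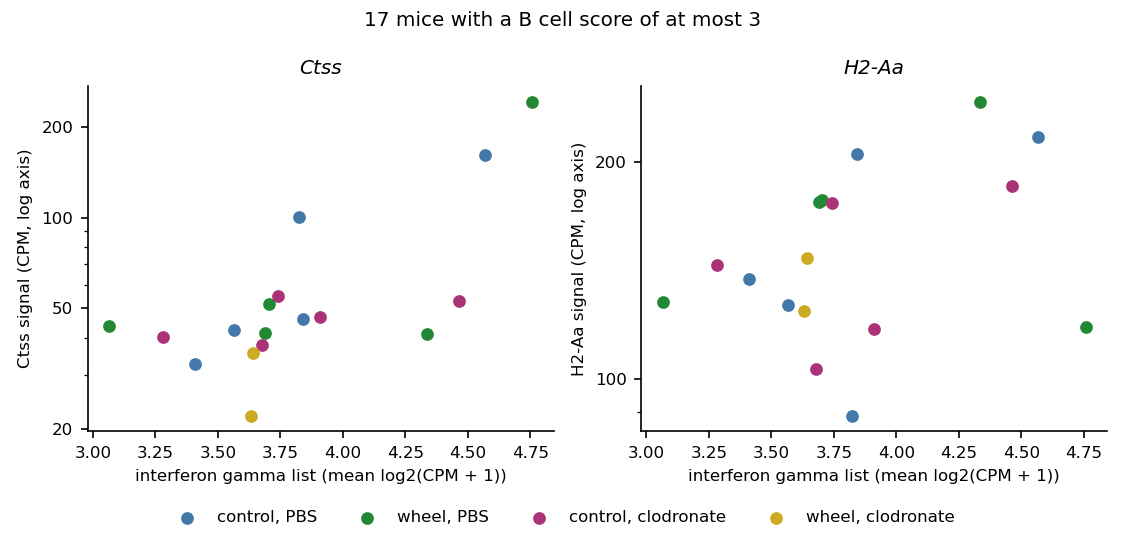
Signal of Ctss and H2-Aa (CPM, log vertical axes) against the interferon gamma list (mean log2(CPM + 1) of its genes) in the 17 mice with a B cell score of at most 3, each point a mouse colored by group. The highest Ctss values, 242 and 162 CPM, belong to the mice highest on the list, while H2-Aa is 118 CPM in the first of them.

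The genes most like the class II chains were ranked by Pearson's r to the mean log2(CPM + 1) of H2-Aa, H2-Ab1, H2-Eb1 and Cd74, as a description. Over all 22 mice, a value set by the separation of the 5 mice from the 17, the 10 nearest genes outside the lists were Prkcb (r = 0.96), Jak1, Trbc1, Ikzf3, Jakmip1, Rasal3, Lat, Ffar1, Mzb1 and Gm19951 (0.93). Only Prkcb, at 9.92 to 145 CPM, and Jak1, at 139 to 373 CPM, were above the floor in all 17 other mice, where their r was 0.69 and 0.62. Over the 17 mice alone the 10 nearest were a different set, Rnase4 (r = 0.78), Serping1, 1190002N15Rik, Dguok, Olfml2b, Pla2g2d, Prnp, Dsel, Sptan1 and Ppp2r2b (0.72). Ppp2r2b reached at most 1.89 CPM and was above the floor in 11 of the 17 mice, so its r rests on values near the floor. Pla2g2d was above the floor in 16. Rnase4 ran from 57.1 to 176 CPM, and Serping1, an inhibitor of complement activation, from 90.2 to 223 CPM.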

How the data were processed

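The deposited values are a signal per gene and mouse, namely CPM by the series' design text, and the values have a floor of 1 and count unmapped and multimapping reads in the total. QuantSeq 3′ libraries were aligned by the authors with STAR 2.5.3a to GRCm38, per the submitters' processing notes, and the counting settings are not given in the sources used here. Values above the floor came out as whole reads in 100% of cases (tolerance 0.02), 57.4% to 64.6% of reads were assigned to genes, and for the 106 symbols with several rows the most abundant row was used. Because counts at the floor are lost, limma 3.58.1 (R 4.3.3, eBayes with a trend, 4 group means) was run on log2(CPM + 1), which understates changes of low genes, over genes that exceeded 1 CPM in 5 or more mice. Alternatives were pseudocounts of 0.1 and 5, filters, upper-quartile scaling, a replicate block, the B cell score as a covariate, and leaving out each mouse or the 5 mice. Others were fits of only the groups compared and exact permutation tests of single members. Permutation tests of correlations drew 100000 resamples. Members and lists were chosen with earlier results of these data known. Named genes were the members, the 2 most abundant genes of each list, any list gene called, and the 10 genes most like the chains over 22 and over 17 mice. A gene that this rule would name is not reported here. All mice came from 1 experiment. The code was tested on simulated data.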

Additional observations from a re-analysis of the deposited data

Results flagged for a closer look

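Ciita in wheel PBS mouse 3 stood apart from the other 5 mice of its group, at 6.53 CPM against 2.16 CPM for the next. It was the only such value among the 32 combinations of a member and a group examined, where chance gives about 1.6. The same mouse had a B cell score above 3, and the part of B cells in the value was not tested.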

How the results depend on the processing

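No member was called in any of the 6 comparisons under the pseudocounts, filters, scaling, block, covariate or without the 5 mice, and leaving out single mice gave 0 to 2 members called in wheel against control mice with clodronate liposomes (2 without wheel clodronate mouse 2) and 0 elsewhere. Fits of only the groups compared called no member either. A mean of at least 5 CPM drops Ciita. Of the values per member, 285 kept their direction and side of the threshold and 46 reversed. They cover the comparisons of a pair of groups and, for the interaction, H2-Aa and Ciita, but not single mice left out. No member was called in the main fit, so keeping the side of the threshold says little. Most reversals came from the B cell settings: 22 reversed and 12 kept without the 5 mice, and 18 and 16 with the covariate. The floor limits Ciita, and 2 wheel clodronate mice remain without the 5.
Without the 5 mice (log2), PBS wheel minus control was -0.080 for Ciita. Wheel minus control with clodronate was -0.064 for H2-Aa, -0.19 for H2-Ab1, -0.39 for H2-Eb1, -0.55 for Cd74, -0.23 for Ciita, -0.50 for H2-DMa, -0.64 for H2-DMb1 and -0.69 for Ctss. Clodronate minus PBS in control mice was 0.089 for H2-Ab1, 0.16 for H2-Eb1 and 0.0064 for H2-DMb1, and in wheel mice -0.27 for H2-Aa, -0.31 for H2-Ab1, -0.30 for H2-Eb1, -0.50 for Cd74, -0.25 for Ciita, -0.82 for H2-DMa, -0.97 for H2-DMb1 and -1.13 for Ctss. The interaction was -0.21 for H2-Aa and -0.15 for Ciita.
With the B cell score as a covariate, wheel minus control with clodronate was -0.22 for H2-Eb1, -0.26 for Cd74, -0.21 for H2-DMa, -0.41 for H2-DMb1 and -0.37 for Ctss. Clodronate minus PBS in control mice was 0.012 for H2-Aa, 0.16 for H2-Ab1, 0.26 for H2-Eb1, 0.064 for Ciita and 0.039 for H2-DMb1, and in wheel mice -0.054 for H2-Aa, -0.036 for H2-Ab1, -0.083 for H2-Eb1, -0.11 for Cd74, -0.45 for H2-DMa, -0.63 for H2-DMb1 and -0.69 for Ctss. The interaction was -0.066 for H2-Aa.
Upper-quartile scaling, which moved the median of all genes by at most 0.10, gave 0.058 for Ctss (PBS, wheel minus control), 0.027 for H2-Ab1 and 0.086 for H2-Eb1 (clodronate minus PBS, control mice) and -0.0051 for H2-DMb1 (wheel mice), and a pseudocount of 0.1 gave -0.015 for the last. It moved the share of higher genes at an unadjusted p under 0.05 from 16.3% to 50.1% (PBS, wheel minus control), 12.9% to 44.0% (clodronate minus PBS, control mice), 20.5% to 41.6% (averaged) and 83.8% to 62.3% (interaction). These causes were not tested.
Mice with the same replicate number correlated above 0.1 in 1 of 6, 3 of 5, 2 of 5 and 4 of 5 pairs. Mice with different numbers were not compared in this way, so that these values cannot show whether the numbers pair the mice. With the replicate block 0 members were called and H2-Eb1 was 0.033 (clodronate minus PBS, control mice).
Leaving out 1 mouse at a time, 31 values reversed. The genes called over the whole table rose from 1 to 236 (wheel minus control, clodronate) and from 1 to 51 (clodronate minus PBS, wheel mice) without wheel clodronate mouse 2, from 0 to 38 (clodronate minus PBS, control mice) without control clodronate mouse 1, and ran from 9 to 146 against 31 in the average. With PBS liposomes, wheel minus control ran from -0.091 to 0.38 for H2-Aa, -0.12 to 0.33 for H2-Eb1, -0.26 to 0.20 for Ciita, -0.0052 to 0.43 for H2-DMa and -0.40 to 0.19 for Ctss. Clodronate minus PBS ran from -0.26 to 0.089 for H2-Ab1, -0.22 to 0.16 for H2-Eb1, -0.055 to 0.31 for Cd74 and -0.25 to 0.026 for H2-DMb1 in control mice, and -0.22 to 0.34 for H2-DMb1 in wheel mice.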
